A study of Mus musculus with 9 samples.

Results

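Cytosolic ribosomal proteins were encoded by 77 protein-coding genes of the 43629 genes in the deposited counts, 46 for the large subunit and 31 for the small subunit. They were taken as the protein-coding genes named Rpsa, Rplp0 to Rplp2, or Rpl or Rps with a number and at most the suffix a, x or a1, with 10 or more counts in at least 4 libraries. Every gene of that name pattern met the count rule. The lowest counts were those of Rpl24, at 144 to 198 per library, and no other gene fell below 928. The RNA came from the frontal cortex of female C57BL/6 mice, 5 wild type (WT; 2, 2, 3, 4 and 4 months old for replicates 1 to 5) and 4 Neat1-/- (here Neat1-KO; 3, 3, 4 and 2 months old for replicates 1, 3, 4 and 5). The knockout allele carries lacZ and polyadenylation signals near the transcriptional start of Neat1, the long noncoding RNA that scaffolds paraspeckles. The labels do not state whether a library held the RNA of 1 mouse, so p-values measure the spread between libraries. Libraries were depleted of ribosomal RNA, and 51276067 to 64648856 counts were deposited for each.

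The ribosome translates mRNA into protein. Its large subunit holds the peptidyl transferase centre and the exit tunnel for the new peptide, and its small subunit reads the mRNA codons. Each subunit is built of ribosomal RNA and one copy of most of its proteins, so that the proteins are made in near equal numbers. Their mRNAs are short and abundant, and most begin with a C followed by a run of pyrimidines, the terminal oligopyrimidine (TOP) tract, through which mTORC1 and the RNA-binding protein Larp1 control their translation. In neurons part of these mRNAs is carried into dendrites and axons. Ribosomal protein genes also have many processed pseudogenes, so that short reads can match several places in the genome.

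Start windows of 6 members were drawn from RefSeq's promoter sequences for GRCm38.p6. All but that of Rpl12 show a pyrimidine run at the annotated start, in genes that were higher in Neat1-KO mice and in genes that did not pass the test. Rpl12 was drawn as a higher gene without a run at that base. Each runs 5′ to 3′ from 30 bases before the annotated start to 20 bases from it, and capitals mark the pyrimidine run that begins at the start.
Rpl14 (chr9:120571487-120571536, plus strand): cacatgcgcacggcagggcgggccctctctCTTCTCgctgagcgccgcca
Rps27 (chr3:90213629-90213678, minus strand): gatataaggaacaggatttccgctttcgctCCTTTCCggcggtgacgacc
Rplp2 (chr7:141447621-141447670, plus strand): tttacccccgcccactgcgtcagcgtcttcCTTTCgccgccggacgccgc
Rpl15 (chr14:18270967-18271016, minus strand): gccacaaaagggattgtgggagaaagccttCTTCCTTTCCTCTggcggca
Rps6 (chr4:86857348-86857397, minus strand): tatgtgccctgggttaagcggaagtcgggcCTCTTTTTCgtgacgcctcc
Rpl12 (chr2:32961682-32961731, plus strand): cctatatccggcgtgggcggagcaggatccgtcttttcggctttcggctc
The Rpl12 window has no such run at the annotated start, but a run of C and T (cttttc) begins shortly after it. A C at the annotated start followed by at least 4 bases of C or T, read on the gene's strand, was found for 13 of the 57 members in the table (22.8%) and for 3.01% of all 27025 genes in it. By subunit it was found for 7 of 34 large and 6 of 23 small subunit members. Annotated starts may lie upstream of the start a cell uses, and a missing run says only that these letters are not at that base.

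Neat1-KO mice had slightly higher levels of ribosomal protein mRNAs than WT mice, in both subunits and by about the same amount. Of the 77 genes, 76 had a positive log2 fold change, and the median was 0.11 for the large and 0.12 for the small subunit, which correspond to 7.89% and 8.73%. In the normalized log2 values that the authors deposited, with all 9 libraries, the medians were smaller, 0.05 and 0.07. At an unadjusted p under 0.05 from edgeR's quasi-likelihood test, 53 of the 77 genes were higher, against 4.27% of the 19753 genes tested, and 0 were lower, against 4.03%. They were 30 of 46 large and 23 of 31 small subunit genes. No member passed a Benjamini-Hochberg adjusted p of 0.05 from edgeR, a threshold that 0.0709% of the genes tested passed, and the lowest adjusted p among the members was 0.303. DESeq2 called 7 members at that threshold (Rpl12, Rps3a1, Rpl14 and Rpl17 among them), against 0.591% of the genes with an adjusted p, and limma called 0. Every Neat1-KO library lay above every WT library for 20 members, 10 in each subunit, against 1.66% of the genes tested.

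The median difference was smaller without 2 of the WT libraries. WT replicates 3 and 4 were the lowest pair for 61 of the 77 members, 36 large and 25 small, and held the lowest level of 53 and 20 members. With both left out, a choice made after the data had been seen, 24 members were higher at an unadjusted p under 0.05 (11 large and 13 small) against 3.81% of the genes tested. All 24 were among the 53. The median log2 fold change was then 0.05 for the large and 0.07 for the small subunit, and 71 members kept a positive value. Leaving out 1 library at a time gave 32 to 67 higher members. The lowest counts were without Neat1-KO replicate 1 (32, against 2.39% of the genes tested) and WT replicate 4 (33, against 2.40%). The highest was without WT replicate 5 (67, against 6.13%), so that the share over all genes moved as well. Among large subunit genes alone 18 were higher without either Neat1-KO replicate 1 or WT replicate 4 and 19 without Neat1-KO replicate 5, and among small subunit genes 14 were higher without Neat1-KO replicate 1 and 15 without WT replicate 4.

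**Figure D1:**
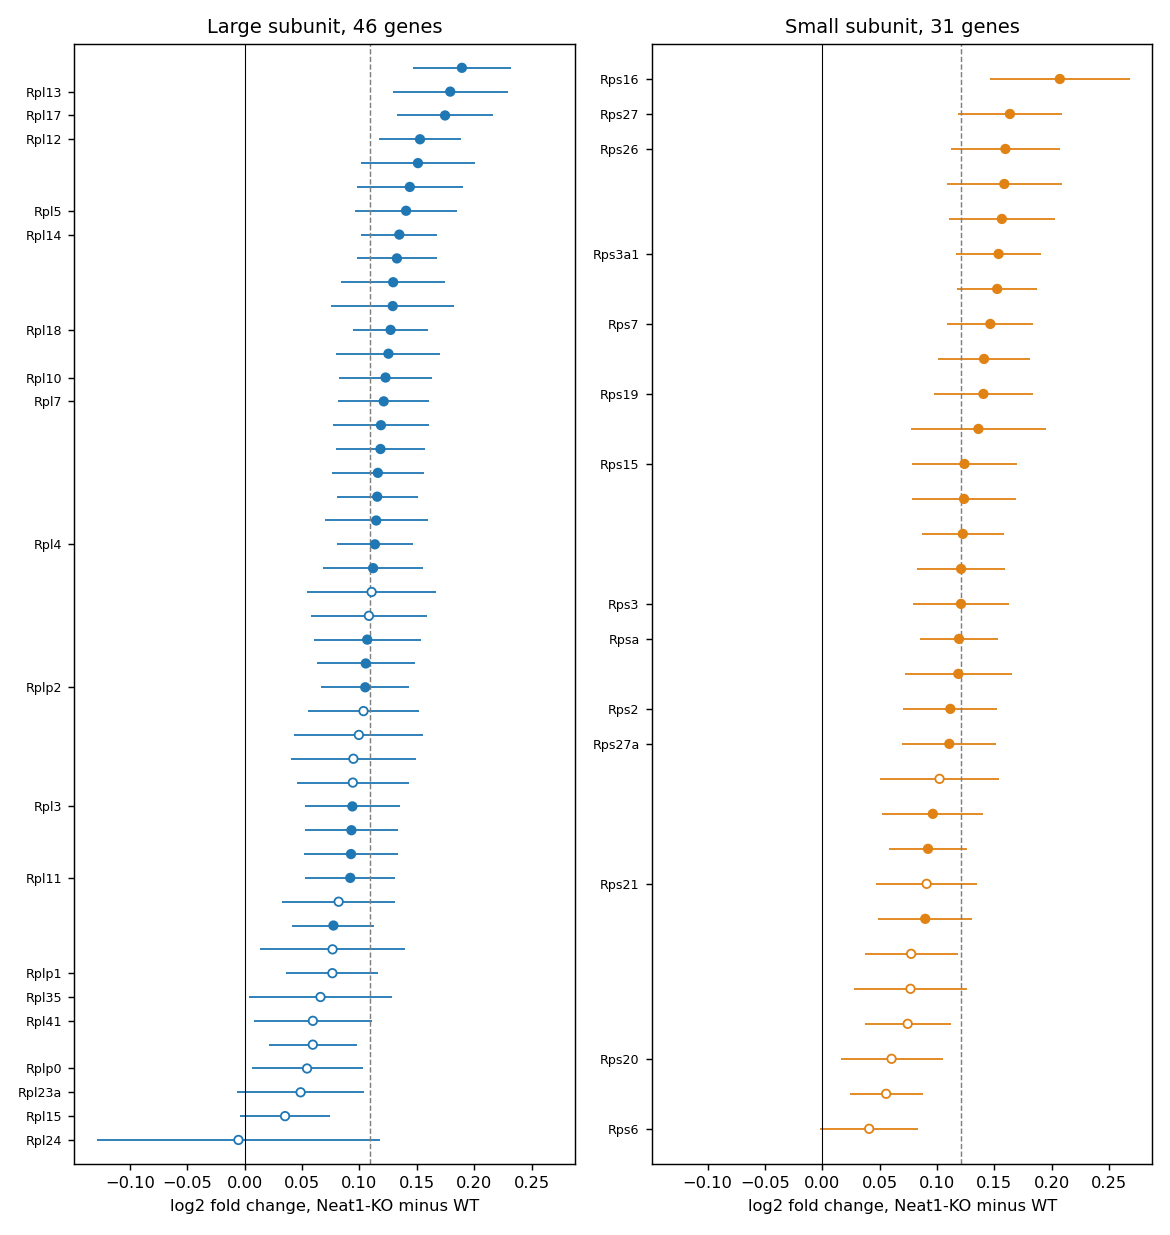
Log2 fold change of each of the 46 large and 31 small subunit genes, Neat1-KO minus WT, with the standard error (SE) from edgeR as a bar; filled points passed an unadjusted p of 0.05, a selection of genes is labelled and the dashed line is the median of each subunit. All points except Rpl24 lie above 0, and the medians are 0.11 and 0.12.

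By library, the 2 subunits moved together. For each gene the deviation from its mean over the 9 libraries was taken on the log2 CPM scale (CPM, counts scaled to a common library total and TMM-normalized), and the median over the genes of a subunit was taken per library. The large subunit medians in WT replicates 1 to 5 were -0.04, -0.0040, -0.14, -0.10 and 0.04, and those in Neat1-KO replicates 1, 3, 4 and 5 were 0.09, 0.07, 0.02 and 0.07. The small subunit medians were -0.06, 0.00028, -0.14, -0.11 and 0.04 in WT and 0.10, 0.07, 0.02 and 0.09 in Neat1-KO libraries. WT replicate 5 thus lay above Neat1-KO replicate 4 in both subunits, and the groups overlapped on this scale. The number of members above their own 9-library mean CPM was 13, 34, 0, 0 and 63 of 77 in the WT libraries and 73, 75, 50 and 75 in the Neat1-KO libraries. In the authors' deposited log2 values, the large subunit medians of WT replicates 1 to 5 were -0.051, -0.031, -0.036, -0.0101 and -0.014. Those of Neat1-KO replicates 1, 3, 4 and 5 were 0.056, 0.029, -0.0077 and 0.052. In those values the genotypes did not overlap in either subunit, and WT replicate 1 was the lowest.

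**Figure D2:**
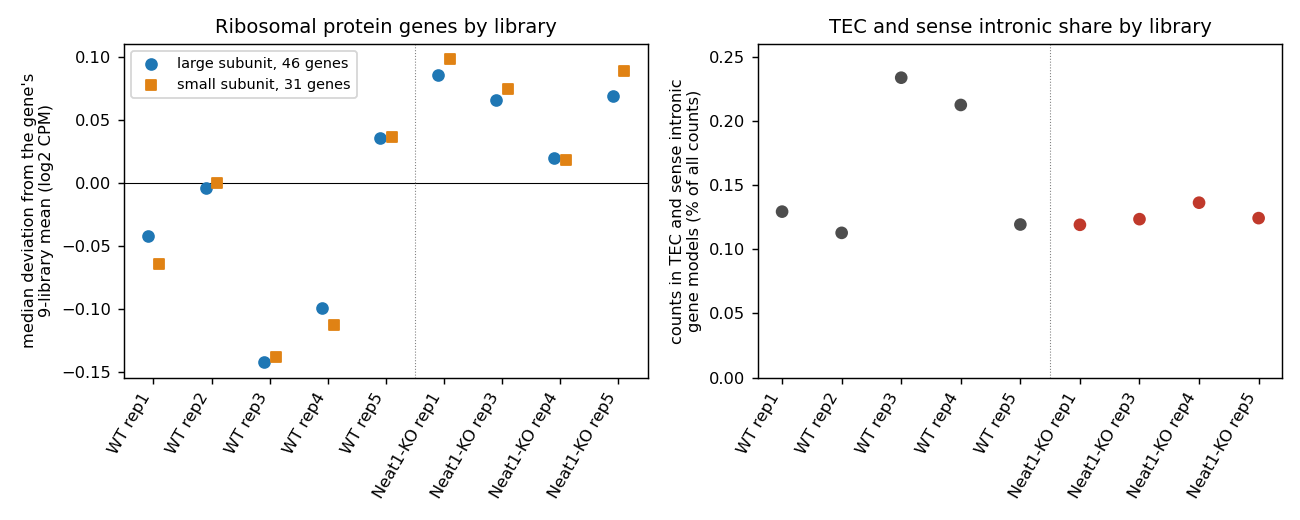
Left, median deviation of the large and small subunit genes from each gene's mean over 9 libraries, in log2 CPM; right, the percentage of all counts in gene models of the types TEC and sense intronic. The 2 subunits have nearly the same value in each library, and WT replicates 3 and 4, the lowest on the left at -0.14 to -0.10, are the highest on the right at 0.234% and 0.212%.

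Members took 0.712% ± 0.030 (SD, n = 5) of the counts in WT and 0.765% ± 0.017 (SD, n = 4) in Neat1-KO libraries. The 5 WT shares were 0.705%, 0.727%, 0.682%, 0.690% and 0.756%, and the 4 Neat1-KO shares were 0.777%, 0.772%, 0.739% and 0.772%. Of nuclear protein-coding counts alone they took 0.782% ± 0.031 and 0.839% ± 0.016. The summed CPM of the large subunit genes divided by that of the small subunit genes was 1.46 ± 0.0074 in WT and 1.45 ± 0.011 in Neat1-KO libraries, a difference within the spread of the libraries. Taken instead as the log2 ratio of the median level of each subunit, it was -0.19 ± 0.035 in WT and -0.24 ± 0.031 in Neat1-KO libraries, a gap of -0.055 that was larger than either SD, although the groups overlapped. Between libraries of a genotype, the median coefficient of variation of a member's level was 5.55% in WT and 3.23% in Neat1-KO libraries. Over all genes tested, which were not matched to the members in level, it was 8.81% and 7.01%. In bulk tissue, fewer cells of a type and less RNA per cell cannot be told apart.

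WT replicates 3 and 4 also stood apart, or at the end of the range, in other measures, though not in all. Gene models of the types TEC (a GENCODE class of candidate genes that await experimental testing) and sense intronic took 0.234% and 0.212% of their counts, against 0.113% to 0.136% in the other 7 libraries. Mitochondrial ribosomal RNA took 3.61% and 3.64% of their counts, the lowest shares of the 9 libraries but close to the 3.71% of WT replicate 2. Over the genotypes that share was 3.73% ± 0.12 in WT and 4.16% ± 0.38 in Neat1-KO libraries, a ratio of 1.11 with overlapping groups, against 1.07 for the share of the members. Ribosomal protein pseudogenes were taken as the 257 genes named Rpl or Rps with a -ps suffix, and pseudogenes with other names were not counted. Of the 45 tested, 0 were higher and 2 lower in Neat1-KO mice, against 4.27% and 4.03% of all genes tested. The summed level of the 257 was highest in WT replicates 3 and 4, at 38.9 and 35.2 CPM, against 29.8 to 34.3 CPM elsewhere. Other short genes were also low there: the 1485 tested protein-coding genes with coding lengths up to 525 bases that were not members, a length class that held 47 members, had a median deviation of -0.09 and -0.04 in WT replicates 3 and 4. Their median log2 fold change was 0.02, and 4.11% of them were higher. The summed choroid plexus markers Ttr, Kl and Folr1 reached 109 CPM in WT replicate 3 against 13.3 to 24.02 CPM in the others, WT replicate 4 included. Meningeal markers instead set WT replicates 1 and 2 apart, at 101.4 and 124.7 CPM. They were lowest in WT replicate 4, at 14.2 CPM, and at 29.6 to 51.7 CPM in the remaining libraries, WT replicate 3 having the 51.7 CPM. Of 12 marker lists of 3 genes each, none of which had a gene at 0 in every library, 1 gene was higher and 0 lower in Neat1-KO mice, and the summed levels of all 12 overlapped between genotypes. Neuronal markers (Snap25, Syt1 and Rbfox3) summed to 4564 to 4774 CPM in WT against 4632 to 4944 CPM in Neat1-KO libraries. The part of these traits in the members' difference was not tested.

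Neat1 itself checked the genotype labels. Its level was 60.8, 83.2, 119.9, 68.1 and 75.3 CPM in WT replicates 1 to 5 and 7.38, 7.11, 8.36 and 9.72 CPM in Neat1-KO libraries. The groups did not overlap, and the libraries labelled Neat1-KO all had the lower level.

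Among the 8 members with the smallest p were Rpl12, Rpl17, Rps3a1, Rpl14, Rpl18 and Rps7, from both subunits. Rpl12 (ENSMUSG00000038900, GRCm38 chr2:32961559-32965345) sits at the base of the stalk that recruits elongation factors. It was at 102.3, 112.0, 106.1, 106.4 and 111.2 CPM in WT replicates 1 to 5 and at 120.8, 122.8, 116.6 and 118.3 CPM in Neat1-KO replicates 1, 3, 4 and 5. All 4 Neat1-KO values were above all 5 WT values, the closest pair being Neat1-KO replicate 4 and WT replicate 2. Neat1-KO exceeded WT by 0.15 on the log2 scale (standard error, SE, 0.035, unadjusted p = 0.000878, adjusted p = 0.303 from edgeR) and by 0.13 without WT replicates 3 and 4. Permuting the genotypes over all 126 splits gave p = 0.00794 (exact, two-sided), the lowest that 5 against 4 libraries can give. Unlike most members, Rpl12 was lowest in WT replicate 1. For Rpl17, which lines the exit tunnel, the log2 fold change was 0.17 (SE 0.042). Its groups overlapped through WT replicate 5, at 140.9 CPM, and Neat1-KO replicate 5, at 136.3 CPM. Rps3a1, a small subunit protein, was at 120.4, 124.7, 119.3, 115.8 and 128.2 CPM in WT against 139.2, 131.8, 131.0 and 139.4 CPM in Neat1-KO libraries. The genotypes did not overlap, and WT replicate 4 was the lowest (log2 fold change 0.15, SE 0.037, and 0.12 without WT replicates 3 and 4). Rpl14, whose start window holds the tract, was at 91.9, 98.2, 91.6, 91.5 and 96.8 CPM in WT against 103.7, 102.9, 101.4 and 104.9 CPM in Neat1-KO libraries, again with no overlap (log2 fold change 0.13, SE 0.033). The log2 fold changes of Rpl18 and Rps7 were 0.13 and 0.15.

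**Figure D3:**
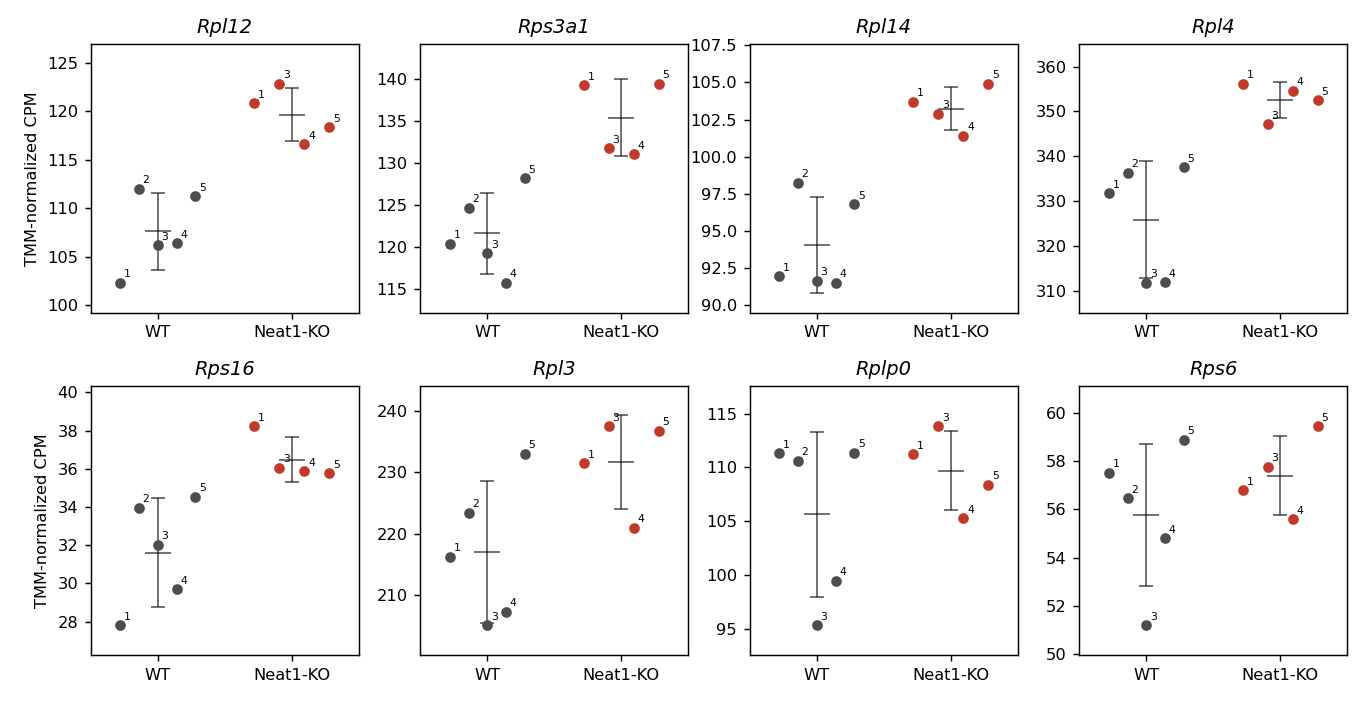
TMM-normalized CPM of 8 members in each library, numbered by replicate, with the mean and SD of each genotype as bars; each axis has its own range and does not start at 0. The genotypes do not overlap for Rpl12, Rps3a1, Rpl14, Rpl4 and Rps16, and they overlap for Rpl3, Rplp0 and Rps6.

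The stalk proteins Rplp0, Rplp1 and Rplp2 bind the factors that drive elongation. Rplp2 was higher in Neat1-KO mice, at 68.8 ± 2.04 CPM (SD, n = 4) against 63.96 ± 2.96 CPM (SD, n = 5) in WT (log2 fold change 0.11, SE 0.038, unadjusted p = 0.0169). It no longer passed without Neat1-KO replicate 3 (unadjusted p = 0.0639) or without WT replicates 3 and 4 (log2 fold change 0.07, unadjusted p = 0.0864). Rplp0 anchors the stalk, and did not pass the test. Its levels in WT replicates 1 to 5 were 111.3, 110.6, 95.4, 99.5 and 111.4 CPM, and those in Neat1-KO replicates 1, 3, 4 and 5 were 111.2, 113.8, 105.3 and 108.4 CPM. WT replicates 1, 2 and 5 lay within the Neat1-KO range, and without WT replicates 3 and 4 the log2 fold change went from 0.05 to -0.02. Rplp1 (log2 fold change 0.08, SE 0.040, unadjusted p = 0.0783) had the highest level per length of the members, 400.6 CPM per kb of mRNA.

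Rpl5 and Rpl11 bind the small ribosomal RNA of the large subunit and, when free, the p53 regulator Mdm2. Both passed the unadjusted test. Rpl5 was at 63.8 ± 3.74 CPM in WT against 70.3 ± 1.87 CPM in Neat1-KO libraries with no overlap (log2 fold change 0.14, SE 0.044, unadjusted p = 0.00724), and Rpl11 differed by 0.09 on the log2 scale (SE 0.039, unadjusted p = 0.0351) with overlapping groups. Rpl11 no longer passed with WT replicate 1, 3 or 4 or Neat1-KO replicate 1, 3 or 5 left out (unadjusted p from 0.0565 to 0.134), and without WT replicates 3 and 4 together it differed by 0.04 (unadjusted p = 0.22). Rpl3, Rpl4 and Rpl10 reach into the catalytic core or the tunnel. Rpl4, which lines the tunnel, was at 331.8, 336.3, 311.9, 311.9 and 337.6 CPM in WT against 356.2, 347.1, 354.6 and 352.5 CPM in Neat1-KO libraries, with no overlap. Rpl10, which joins the large subunit late in its assembly, differed by 0.12 on the log2 scale (SE 0.041), also with no overlap, and by 0.06 (unadjusted p = 0.0817) without WT replicates 3 and 4. Rpl3, near the peptidyl transferase centre, differed by 0.09 on that scale (SE 0.041, unadjusted p = 0.0403), and 2 of its 5 WT levels, 223.5 and 233.0 CPM, lay within the Neat1-KO range of 221.0 to 237.6 CPM. Rpl3 no longer passed when scaled by library size alone (unadjusted p = 0.0536) or with WT replicate 1, 3 or 4 or Neat1-KO replicate 1, 3 or 5 left out (unadjusted p from 0.092 to 0.122), and without WT replicates 3 and 4 together it differed by 0.04 (unadjusted p = 0.267).

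Among small subunit proteins, Rpsa, Rps2, Rps3, Rps19, Rps26 and Rps27a were higher at an unadjusted p under 0.05 and Rps6 was not. Rps6 is the substrate of S6 kinase downstream of mTORC1. Its levels were 57.5, 56.5, 51.2, 54.8 and 58.9 CPM in WT against 56.8, 57.8, 55.6 and 59.5 CPM in Neat1-KO libraries (log2 fold change 0.04, SE 0.042, unadjusted p = 0.354). Only WT replicates 3 and 4 were below the Neat1-KO range, and without them the log2 fold change was -0.0063. Rps26 and Rps19 are mutated in Diamond-Blackfan anaemia. Their log2 fold changes were 0.16 (SE 0.047) for Rps26 and 0.14 (SE 0.043) for Rps19, both with no overlap between genotypes. Rpsa, which is needed to mature the small subunit, differed by 0.12 on the log2 scale (SE 0.034), Rps2, at the mRNA entry channel, by 0.11 (SE 0.041), and Rps27a, made as a fusion with ubiquitin, by 0.11 (SE 0.041). Rps3, also at the mRNA entry channel, differed by 0.12 on the log2 scale (SE 0.042) with all libraries and by 0.07 (unadjusted p = 0.102) without WT replicates 3 and 4. Rps2 (0.05, unadjusted p = 0.117) and Rps27a (0.05, unadjusted p = 0.162) did not pass without those libraries either. With 1 library left out, Rps2 was lost without WT replicate 4 or Neat1-KO replicate 5, Rps27a without WT replicate 4 or Neat1-KO replicate 1 or 4, and Rps3 without Neat1-KO replicate 1 (unadjusted p from 0.05001 to 0.0698).

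The study's table of RNA processing genes holds 7 of the members, Rps15, Rps19, Rpl5, Rpl7, Rps16, Rps7 and Rpl14, and each was higher here at an unadjusted p under 0.05. The study's gene set enrichment also listed sets of the cytosolic ribosome, and of its large and small subunits, as up in Neat1-KO mice. The table and the gene sets were both drawn from these samples, so that neither is independent evidence of direction. Rps16, which touches the transfer RNA in the decoding site, had the highest log2 fold change of the 77 members, 0.21 (SE 0.061, unadjusted p = 0.00487, adjusted p = 0.468 from edgeR). Its levels were 27.8, 33.97, 32.03, 29.7 and 34.5 CPM in WT against 38.2, 36.1, 35.9 and 35.8 CPM in Neat1-KO libraries. The genotypes did not overlap, and WT replicate 1 rather than 3 or 4 was the lowest. The log2 fold change was 0.12 for Rps15 and for Rpl7, 0.15 for Rps7 and 0.13 for Rpl14. Without WT replicates 3 and 4, Rps15 (0.06, unadjusted p = 0.113) and Rpl7 (0.06, unadjusted p = 0.0638) did not pass, and Rps15 was also lost without WT replicate 4 or Neat1-KO replicate 1 or 5 (unadjusted p from 0.0506 to 0.0583).

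At the other end, Rpl24, Rpl15, Rps6, Rpl23a and Rplp0 had the lowest log2 fold changes, from -0.0053 to 0.05, and none passed the test. Rpl24, a bridge between the subunits, was counted at only 2.79 ± 0.27 CPM in WT against 2.78 ± 0.21 CPM in Neat1-KO libraries, or 4.11 CPM per kb, the lowest level per length of the members. Of its exon bases, 47.0% lie within exons of the gene model Gm28037, on the same strand of chromosome 16, which was counted at 0 in every library. Of the 50-base words of its mRNA, 81.7% occur in a transcript of another gene. Its log2 fold change had an SE of 0.12 and turned positive without WT replicate 5. Rpl15 was at 77.4 ± 3.95 CPM in WT against 79.3 ± 2.00 CPM in Neat1-KO libraries, and Rpl23a, a docking site at the tunnel exit, at 22.98 ± 1.44 and 23.8 ± 1.07 CPM.

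Levels per length ranged from 4.11 to 400.6 CPM per kb of mRNA, with medians of 106.2 for the large and 134.4 for the small subunit. The members with the highest were Rplp1, Rps21 (324.5), Rps15 (291.4) and Rpl41 (277.5), the last with the shortest coding sequence, 75 bases. Those with the lowest were Rpl24, Rpl35 (21.5), Rps20 (23.6) and Rps16 (30.5). Such levels depend on how many reads could be placed on 1 gene. A median of 61.2% of the 50-base words of a member's mRNA also occur in transcripts of other genes, from 0% to 98.6%, the highest in Rps27, so that levels between members are uncertain where reads could be split or dropped. By this share, the median log2 fold change was 0.11 over the 8 members with less than 25% of such words (5 higher), 0.12 over the 42 with 25% to less than 75% (31 higher) and 0.11 over the 27 with 75% or more (17 higher).

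Members with and without a pyrimidine run at the annotated start were both among the higher ones. Of the 13 with the run, 6 passed the unadjusted test, and the log2 fold changes of the 13 ran from 0.04 in Rpl15 to 0.16 in Rps27 with a median of 0.10. Of the 44 without it, 32 were higher, with a median of 0.12. No test was made of that difference. Some of the 44, such as Rpl12, have a run close to the annotated start, so the groups are not genes with and without a TOP tract.

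**Figure D4:**
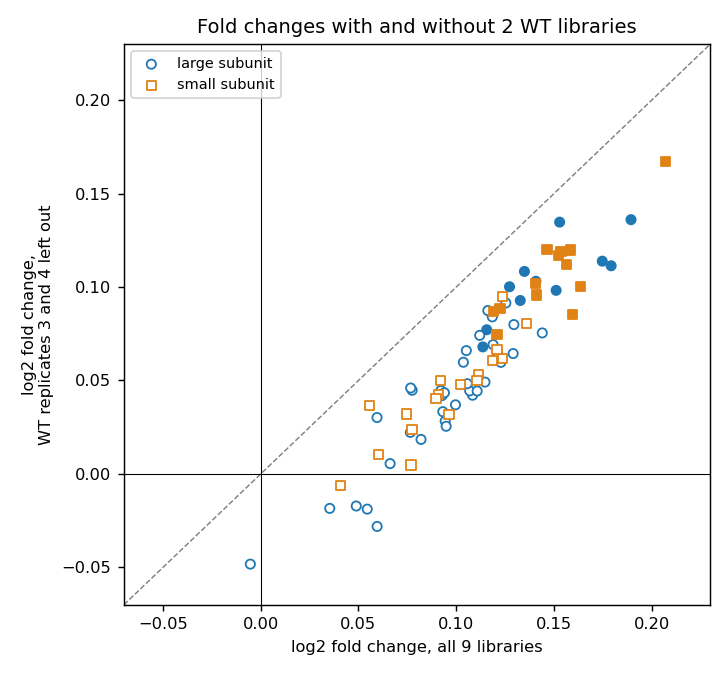
Log2 fold change of each member from all 9 libraries (x axis) and with WT replicates 3 and 4 left out (y axis); circles are large and squares small subunit genes, filled where the unadjusted p without those libraries was under 0.05, and the dashed line marks equal values. Most points lie below the line and above 0, with 24 filled and 71 above 0 on the y axis. The libraries left out were the lowest pair for most members, which puts most points below the line by construction.

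Age was the other factor of the design. At an unadjusted p under 0.05 in the same fit, 0 members rose with age, against 2.86% of the genes tested, and 2 fell, against 3.12%. They were, named after their values had been seen, Rps14, in the platform of the small subunit, which fell by 0.06 per month on the log2 scale (SE 0.024), and Rpl29, which fell by 0.08 (SE 0.034), and neither passed an adjusted p of 0.05 from edgeR. Without WT replicate 5, a 4-month library, 21 members fell with age and 0 rose. Of the 19577 genes tested in that fit, 1246 fell and 1384 rose. Without several single libraries, Neat1-KO replicate 1 among them, 0 members fell, against 474 of 20073 genes without that replicate.

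Of the ribosomal proteins outside the name pattern, Fau and Rack1 are given here. Fau encodes Rps30 fused to a ubiquitin-like protein. In WT replicates 1 to 5 it was at 64.3, 65.4, 56.1, 57.7 and 62.9 CPM, and at 72.7, 70.4, 72.3 and 73.4 CPM in Neat1-KO libraries. The genotypes did not overlap, and the log2 fold change of 0.24 (SE 0.043, unadjusted p = 0.000111, adjusted p = 0.0962 from edgeR) was above that of every member. Fau lies on chromosome 19, which holds no member, 212.4 kb from Neat1. Without WT replicates 3 and 4 the log2 fold change was 0.17, and DESeq2 gave an adjusted p of 0.000474. Rack1, a kinase C scaffold on the small subunit, was at 151.6 ± 7.37 CPM in WT against 156.9 ± 4.76 CPM in Neat1-KO libraries (unadjusted p = 0.233). Paralogs, which replace or resemble a member, did not pass the test in any case. Of 9 listed, 6 were tested (Rpl7l1, Rpl22l1, Rpl36al, Rps4l, Rps27l and Rps27rt), with 0 higher, 0 lower and a median log2 fold change of 0.04. Rpl22l1 was at 22.9 ± 1.69 CPM in WT against 24.1 ± 1.44 CPM in Neat1-KO libraries.

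Other genes of translation were described by counts and medians over lists, beside 4.27% higher and 4.03% lower of all genes tested. Of 8 elongation factor genes 1 was higher and 0 lower, with a median log2 fold change of 0.05: Eef1a1, which brings transfer RNA to the ribosome, differed by 0.08 on the log2 scale (SE 0.032, unadjusted p = 0.0344). Of 37 initiation factor genes 6 were higher and 0 lower, with a median of 0.01. Eif4b, which stimulates the helicase of the cap complex, had the smallest p, at 233.1 ± 8.05 CPM in WT against 252.5 ± 4.603 CPM in Neat1-KO libraries (log2 fold change 0.12, SE 0.033) with no overlap. Eif2s3x, Eif3f and Eif5 had log2 fold changes of 0.09, 0.11 and 0.08. With WT replicates 3 and 4 left out, 1 initiation factor gene was higher and 2 were lower. Of 35 ribosome biogenesis genes 2 were higher and 0 lower, with a median of -0.01, and they were Npm1, nucleophosmin, at 0.08 (SE 0.033), and Nob1, an endonuclease of small subunit maturation, at 0.13 (SE 0.053). Of 6 snoRNA host genes, many of which also carry TOP tracts, all 6 lay above 0 (median log2 fold change 0.13), and 1 was higher, Gas5, at 71.4 ± 4.07 CPM in WT against 79.05 ± 3.93 CPM in Neat1-KO libraries. Of 15 genes of mTORC1 and TOP regulation 0 were higher and 0 lower, with a median of -0.01. Mtor, its kinase, was at 210.0 ± 2.56 CPM in WT against 206.5 ± 3.59 CPM in Neat1-KO libraries.

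Mitochondria have ribosomes of their own, built of other proteins. Of 76 mitochondrial ribosomal protein genes tested, 5 were higher and 1 was lower, with a median log2 fold change of 0.02. Of 74 nuclear genes of the respiratory chain 2 were higher and 0 lower, with a median of 0.02. With WT replicates 3 and 4 left out, each of these lists had 1 gene higher and 4 lower. Mrpl11 was lower, at 33.5 ± 1.06 CPM in WT against 30.5 ± 0.41 CPM in Neat1-KO libraries with no overlap, and Mrpl49 higher, at 35.0 ± 2.36 and 38.8 ± 1.05 CPM. Both lie on chromosome 19. Mrpl54 and Mrpl12 had log2 fold changes of 0.18 and 0.13, and the respiratory chain genes that passed were Cox7a2l, at 0.16, and Atp5j, at 0.10. Over the 4045 other protein-coding genes at 38.4 to 157.6 CPM, the range of the middle 80% of the members, the median log2 fold change was 0.01, with 6.60% higher and 2.87% lower. Without WT replicates 3 and 4, the initiation factor, biogenesis, mTORC1, paralog, mitochondrial ribosome and respiratory chain medians were below 0, at -0.02 to -0.01, while those of both cytosolic subunits, the snoRNA host genes (0.08, above both subunits), the elongation factors (0.0077) and the ribosomal proteins outside the name pattern (0.0088) were above 0.

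**Figure D5:**
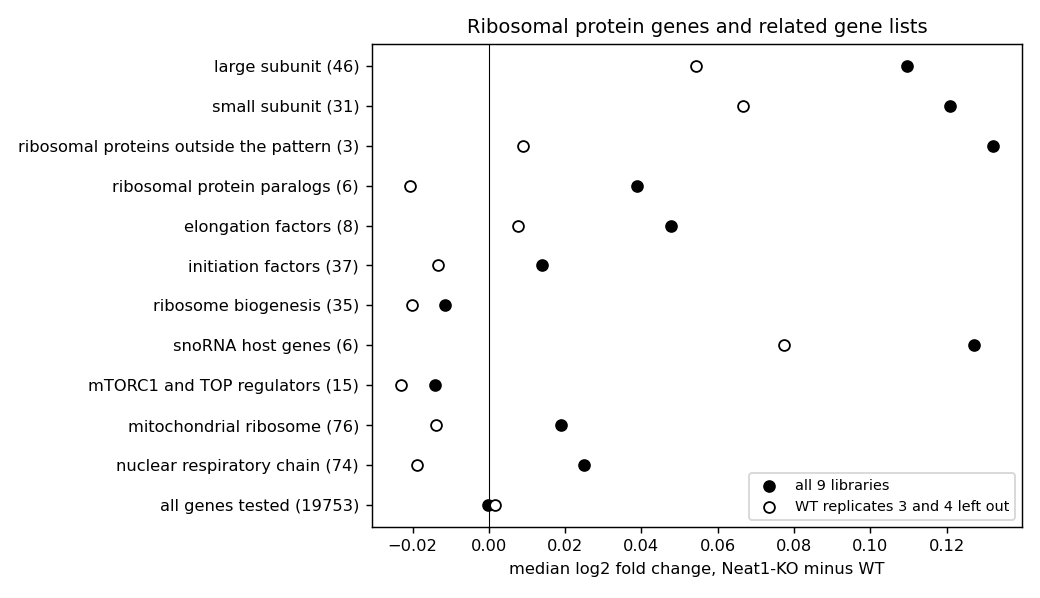
Median log2 fold change, Neat1-KO minus WT, of the large and small subunit genes, of related gene lists and of all genes tested, with the number of genes tested in parentheses; filled points are from all 9 libraries and open points from 7, without WT replicates 3 and 4. Both subunits and the snoRNA host genes are at 0.11 to 0.13 with all libraries and from 0.05 to 0.08 without the 2 WT libraries.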

How the data were processed

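The data are RNA-seq of frontal cortex from 5 WT and 4 Neat1-KO libraries. As deposited, the authors gave raw read counts per Ensembl gene and, for 13456 genes, normalized log2 expression values, which were used only as an alternative. The submitters' processing notes list STAR 2.5.0 with HTSeq 0.8.0, whereas the study's methods name another aligner and strict intersection counting, and neither states a strand setting. Reads that match several genes or places may therefore be dropped, and antisense partners cannot be told apart.

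Gene names, types and GRCm38 positions were taken from GENCODE vM21, which named 97.5% of the IDs. The 19753 genes kept by edgeR's filterByExpr were fitted with edgeR 4.0.16 (R 4.3.3; glmQLFit, glmQLFTest) on TMM-normalized counts with age in months and genotype, and p-values were adjusted by the Benjamini-Hochberg method over all genes. The deposited counts summed to at least 51276067 per library, and the common biological coefficient of variation was 0.0922. CPM are TMM-normalized, and log2 CPM had a prior count of 2. Levels per length used 1 protein-coding transcript a gene, by APPRIS and basic tags and then the longest coding sequence. For single members, genotypes were permuted exactly over the 126 splits (two-sided). On simulated counts of 19495 genes for this comparison, 37 of 67 genes changed 1.5-fold and 62 of 65 changed 4-fold were called at an adjusted p of 0.05, as were 11 of 19299 unchanged genes. The other settings tried were DESeq2 1.42.0, limma 3.58.1 (voomWithQualityWeights), other scalings, filters and age terms, a replicate block and each library left out. Tables were made with Python 3.11.15 and pandas 2.3.3 and figures with Matplotlib 3.10.9.

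The members and gene lists were chosen with earlier results of these data known. Genes were named by role (stalk, core, small subunit), by the study's table, by the 8 smallest p, the 6 lowest and 6 highest log2 fold changes, the 4 highest and 4 lowest levels per length, and of each related list by up to 4 genes at an unadjusted p under 0.05 or else the highest levels. Some genes that this rule picks are not reported here.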

Additional observations from a re-analysis of the deposited data

Results flagged for a closer look

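Among 33 named members, 3 other genes and 5 per-library summaries, each tested in both genotypes, 2 groups held a library far from the others by the ratio of its gap to the range. Chance gives about 1 in 20 such groups. Rps16 was at 38.2 CPM in Neat1-KO replicate 1, above 35.8 to 36.1 CPM in the other 3 Neat1-KO libraries. Members took 0.739% of the counts in Neat1-KO replicate 4, below 0.772% to 0.777% in the other 3.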

How the results depend on the processing

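No member was lower, and both subunit medians were above 0, in all 20 alternatives. Higher members numbered 49 to 53 under 3 other scalings, against 3.28% to 4.31% of the genes tested. With 1 library left out they numbered 32 to 67 (large 18 to 38, small 14 to 29), against 2.39% to 6.13% of the genes tested. Leaving out WT replicates 3 and 4 together, chosen with the data in view, gave 24 in place of 53 (large 11, small 13), against 3.81% of the genes tested. These libraries were the lowest pair for 61 of the 77 members, so that a fall was set by the choice. Members at an adjusted p under 0.05 numbered 2 without a filter on low counts, against 76 of all 32164 genes, and 7 by DESeq2, against 0.591%. With a library left out they numbered 0 to 3, the most without WT replicate 5, where 30 of 19577 genes passed. With age, 1 member rose and 1 fell by library size alone, against 676 and 482 of 19753 genes. With limma 5 fell, against 860 of 19753 genes. Without WT replicates 3 and 4, 3 rose and 1 fell, against 641 and 608 of 19714 genes. With a library left out 0 to 2 rose and 0 to 21 fell, the most falling without WT replicate 5, where 1246 of 19577 genes fell. The 2 rose without WT replicate 4, where 430 of 19507 genes rose. Same-numbered libraries share only a number (correlations of their deviations from -0.08 to 0.14, and of 4 numbers only replicate 4 correlated best with its own). The replicate block used 8 libraries, without WT replicate 2, and left 2 residual degrees of freedom. With it 62 members were higher, against 3.67% of the genes tested. The same 8 libraries without it gave 54, against 3.88%. With age, 3 members rose and 0 fell under the block, against 226 and 298 of 19585 genes. The log2 ratio of large to small subunit differed by -0.055 with medians over members in place of -0.0047 with summed CPM. In the deposited normalized values the medians were 0.05 and 0.07. Rpl24 turned positive with limma (0.012) and, over libraries left out, ranged from -0.050 (without Neat1-KO replicate 3) to 0.055 (without WT replicate 5). Without WT replicates 3 and 4, Rplp0 (-0.019), Rps6 (-0.0063), Rpl15 (-0.018), Rpl23a (-0.017) and Rpl41 (-0.028) turned negative. Of 700 values of named genes, 647 kept direction and side of the threshold. The cause was not tested. Rpl24, with the lowest counts, had the widest error.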
